A study of Columba livia with 18 samples.

Results

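The lysosome was described here through 50 of the 20918 gene models measured in pigeon hair cells. A gene model was a member if the protein it resembled in the annotation carried a symbol that began with ATP6V or ATP6AP (the proton pump), or a cathepsin symbol (CTS and a single letter), or if it was 1 of 18 named symbols for hydrolases, membrane proteins, cholesterol carriers and mannose 6-phosphate receptors. The 50 gene models carried 44 symbols. No gene model in the table carried the symbols NPC2, CLN3 or NEU1. The rule uses names alone and held no measured value, but the members were chosen with earlier results of these data known.

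Lysosomes are acidic organelles in which proteins, lipids and sugars are broken down. The vacuolar ATPase acidifies them: its V1 sector in the cytosol hydrolyses ATP and its V0 sector in the membrane lets protons through. Most soluble hydrolases are delivered from the Golgi by mannose 6-phosphate receptors, and glycosylated membrane proteins such as LAMP1 line the organelle. Lysosomes also take up ferritin and release its iron, and the cuticulosome is an iron-rich, ferritin-containing organelle in the cuticular plate of some avian hair cells.

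Each of 9 pigeons (Columba livia, 1 year of age) gave 30 pooled hair cells that held cuticulosomes and 30 that held none, both picked from the basilar papilla, the hearing epithelium of the cochlear duct, after trypsin treatment. No genotype, strain, treatment or sex was given in the sources used here. The 18 libraries were amplified before sequencing and run on 3 flow cells with 3 pigeons each, both libraries of a pigeon on the same flow cell. The unit is FPKM, fragments per kilobase of transcript, scaled to the mapped fragments of the library. The values come without read counts per gene model, so the counting error of each is unknown, and fewer cells of a type in a pool could not be told apart from less RNA per cell.

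Total FPKM ranged from 558379 to 788454 in libraries with cuticulosomes and from 558576 to 655548 in those without. Hair cell markers summed to between 1504 and 20315 FPKM in libraries with cuticulosomes and to between 4343 and 19961 FPKM without, from 12 gene models of 10 of the 13 listed symbols. OTOF (CLIV_019819) and TMC2 were among them. The sum of 4343 FPKM was that of pigeon 513 without cuticulosomes, where the hair cell marker CALB1 was listed at 0, against 929 to 14712 FPKM in the other 17 libraries. The library with cuticulosomes of pigeon 435 stood apart: it had the lowest hair cell sum, the highest supporting cell sum (3621 FPKM) and 16008 gene models above 0. Most of that supporting cell sum came from GJB6 (CLIV_005073 at 2569 FPKM, CLIV_005074 at 439 FPKM). TECTB of the same list went the other way, with its lowest value of all libraries there (57.5 FPKM). The library without cuticulosomes of pigeon 435 also stood apart. Its red blood cell sum was 37323 FPKM, against at most 4689 FPKM in any other library. COCH, a supporting cell marker, was at 1570 FPKM there, and TECTB at 201 FPKM, within the range of the other libraries. The library with cuticulosomes of pigeon 450 had the highest total FPKM, but the fewest gene models above 1 FPKM (6737). Its factor for scaling by median ratios, taken over gene models above 0 in all libraries, was the lowest. This factor was 0.74, against 1.04 in the library without cuticulosomes of the same pigeon. No difference of a marker sum between the cell types passed the test (p = 0.719 for hair cells, 0.266 for supporting cells, 0.359 for red blood cells, 0.898 for macrophages and leukocytes, 0.164 for tegmentum vasculosum and ionocytes, exact two-sided sign-flip permutation test, smallest adjusted p = 0.599 over the 5 lists). Log2 differences that moved by over 1.5 times or changed sign without pigeon 450, or without pigeons 435 and 450, are also given without them.

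Lysosomal transcripts were abundant in both cell types. Of the 50 members, 45 (90%) passed the filter of a mean above 1 FPKM over the 18 libraries and were tested, against 54.5% of all gene models. Their median level was 77.8 FPKM, against 9.84 FPKM for the 11393 gene models tested. The mean was above 100 FPKM for 20 members, and 29 members were above 1 FPKM in all 18 libraries. Together the members held 1.24 to 1.51% of the total FPKM in libraries with cuticulosomes (median 1.33%) and 1.17 to 1.67% in those without (median 1.4%), and the share was higher with cuticulosomes in 5 of 9 pigeons.

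The 5 members that did not pass the filter were ATP6V1B1, CTSE, ATP6V0D2 and the second gene models of NPC1 and PSAP. ATP6V1B1 and CTSE (cathepsin E) were listed at 0 in all 18 libraries. ATP6V1B1 and ATP6V0A4 encode the pump isoforms of acid-secreting cells of the kidney and inner ear in mammals. ATP6V0D2 was at 9.62 FPKM in pigeon 435 with cuticulosomes and at 0.0821 FPKM or less in all other libraries. NPC1 CLIV_012522 and PSAP CLIV_013670 averaged 0.0114 and 0.466 FPKM over all libraries.

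**Figure D1:**
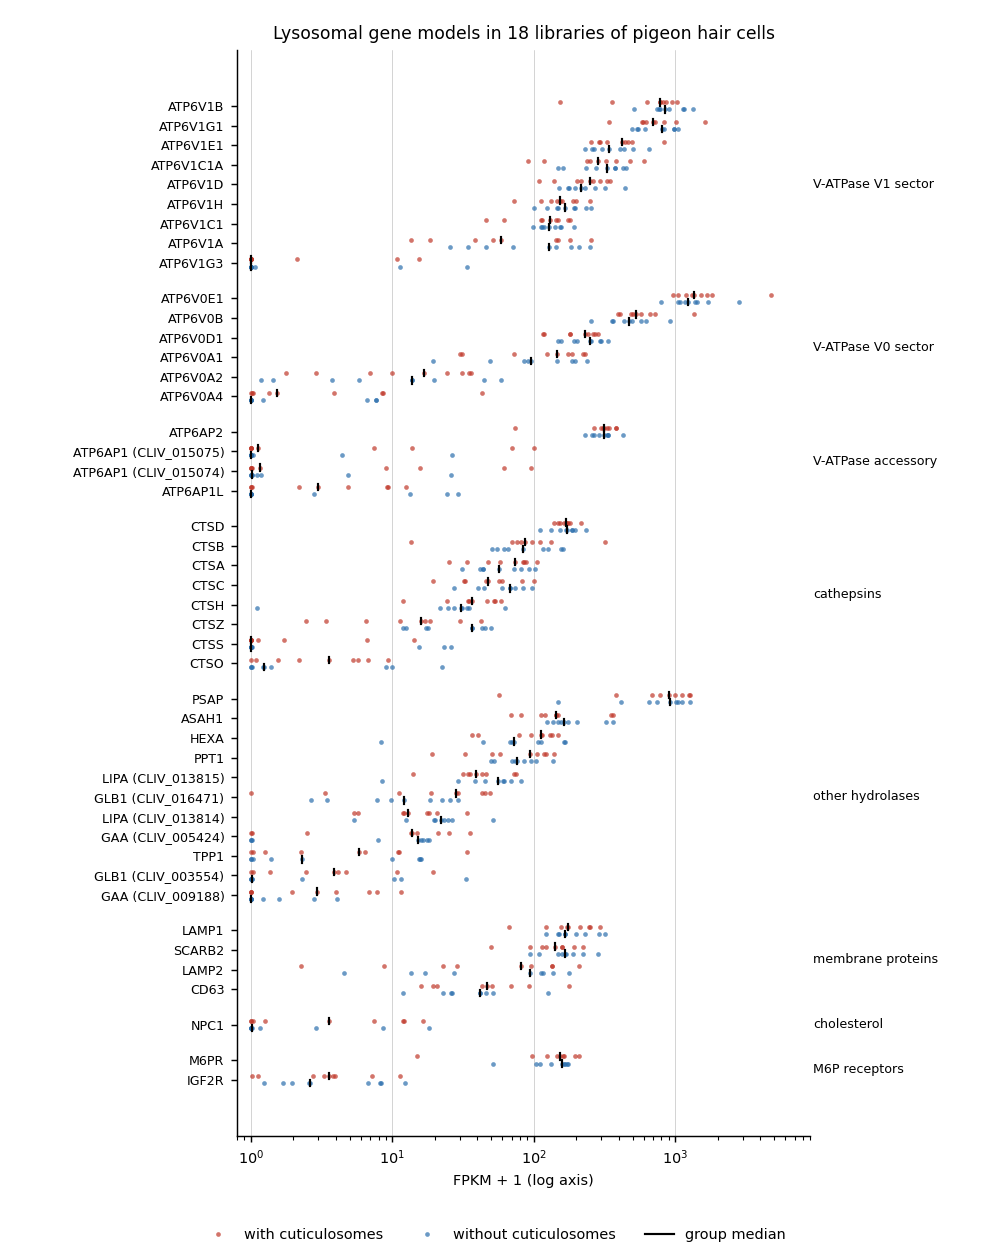
FPKM + 1 (log axis) of the 45 tested members, grouped by role, with cuticulosomes in red above without cuticulosomes in blue. Each point is 1 library (9 per group), black ticks are group medians, and the groups overlap for every member.

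The V1 sector was read from 10 gene models, of which 9 were tested. ATP6V1B (CLIV_008494), the B subunit that forms the ATP-hydrolysing head with subunit A, had the highest level, 807 FPKM over all libraries. It ranged from 153 to 1025 FPKM with cuticulosomes (median 783) and from 510 to 1342 FPKM without (median 852). The 2 lowest of the 18 values were in pigeons 435 (153 FPKM) and 450 (359 FPKM), both with cuticulosomes. Its mean was 706 ± 283 FPKM with cuticulosomes and 908 ± 255 FPKM without (SD, n = 9 each), and it was lower with cuticulosomes in 7 of 9 pigeons. On the log2(FPKM + 1) scale the difference was -0.49 (SE 0.19, limma adjusted p = 0.902, exact sign-flip permutation p = 0.0469). Of all gene models tested, 6.27% were lower in at least 7 pigeons. The differences averaged -0.59, -0.47 and -0.40 on flow cells 1, 2 and 3. Without pigeons 435 and 450 the difference was -0.22, and no longer at an unadjusted p under 0.05.

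ATP6V1A, the catalytic A subunit, was lower than ATP6V1B in 18 of 18 libraries, with a ratio of 7.33 between the means of ATP6V1B and ATP6V1A. ATP6V1A ranged from 12.6 to 253 FPKM with cuticulosomes (median 57.8) and from 24.6 to 248 FPKM without (median 127). The libraries were spread widely in both groups and overlapped (log2 difference -0.46, SE 0.27, limma adjusted p = 0.902, lower in 6 of 9 pigeons), and the difference was -0.24 without pigeons 435 and 450. The stalk subunits ATP6V1G1 and ATP6V1E1 averaged 779 ± 367 and 425 ± 177 FPKM with cuticulosomes, against 760 ± 214 and 377 ± 137 FPKM without. ATP6V1C1A and ATP6V1C1, gene models for the C subunit that links the 2 sectors, averaged 306 ± 162 and 123 ± 46.3 FPKM with cuticulosomes, against 308 ± 111 and 134 ± 28.9 FPKM without. ATP6V1C1A was the higher of the pair in 18 of 18 libraries. ATP6V1G3, the G subunit of kidney in mammals, was above 1 FPKM in 5 libraries, whereas ATP6V1G1 was higher in 18 of 18.

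Of the 9 V1 gene models, 8 (88.9%) had a log2 fold change below 0 and 1 above, against 46.1% below 0 of all gene models tested. Their median was -0.13 and their range -0.49 to 0.16. Without pigeon 450, 6 were below 0 and 3 above, with a median of -0.04, against 43.1% of all below 0. Without pigeons 435 and 450, 7 were below and 2 above, with a median of -0.12, against 42.3% of all below 0. The fold changes of ATP6V1D (-0.03), ATP6V1G1 (-0.03) and ATP6V1G3 (-0.02) were small against their standard errors in all pigeons (-0.05, -0.06 and -0.17 without pigeons 435 and 450), and ATP6V1D was at 0.00 after scaling by median ratios. The V1 sum was lower with cuticulosomes in 7 of 9 pigeons, with a median of 2954 FPKM with cuticulosomes and 3217 FPKM without.

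In the V0 sector, 6 of 7 gene models were tested. ATP6V0E1 (CLIV_015312), the small e subunit, was the most abundant member, with 1572 FPKM over all libraries and rank 32 among all gene models. It ranged from 970 to 4760 FPKM with cuticulosomes (median 1355) and from 789 to 2826 FPKM without (median 1237). Pigeon 450 gave the highest value of both groups, and the next value with cuticulosomes was 1814 FPKM. The level was higher with cuticulosomes in 4 of 9 pigeons (log2 difference 0.21, SE 0.13, limma adjusted p = 0.902), and the difference was 0.12 without pigeons 435 and 450.

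ATP6V0B (CLIV_003002, scaffold 87), a proteolipid of the proton-carrying ring, was higher with cuticulosomes in 9 of 9 pigeons, as were 0.167% of all gene models tested. Its level was 405, 487, 393, 1356, 524, 502, 660, 574 and 713 FPKM with cuticulosomes in pigeons 433, 434, 435, 450, 451, 458, 513, 514 and 515, against 359, 253, 361, 915, 497, 467, 616, 568 and 434 FPKM without. The groups overlapped widely, and both libraries of pigeon 450 were the highest of their group. Mean levels were 624 ± 294 FPKM with cuticulosomes and 497 ± 192 FPKM without (SD, n = 9 each), a log2 difference of 0.31 (SE 0.14, limma adjusted p = 0.902). The exact sign-flip permutation test (two-sided) gave p = 0.0039, the smallest that 9 pairs allow. The count of 9 pigeons and this p hold for FPKM as deposited. Scaled by median ratios (factors 1.08 with and 1.04 without), ATP6V0B was lower with cuticulosomes in pigeon 514. As a share of total FPKM (602127 with, 558576 without), it was lower with cuticulosomes in pigeon 513. The differences averaged 0.41, 0.25 and 0.28 on the 3 flow cells, and without pigeons 435 and 450 the difference was 0.30, no longer at an unadjusted p under 0.05.

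ATP6V0D1, the d subunit that couples the ring to the V1 sector, averaged 208 ± 63.7 FPKM with cuticulosomes and 236 ± 65.6 FPKM without (log2 difference -0.20, SE 0.19, limma adjusted p = 0.902, and -0.05 without pigeon 450). The a subunit, which forms the proton path, was mainly ATP6V0A1, at 134 ± 76.3 FPKM with cuticulosomes and 122 ± 72.9 FPKM without. ATP6V0A1 was above ATP6V0A2 in 18 of 18 libraries and above ATP6V0A4 in 17 of 18. The exception was pigeon 435 with cuticulosomes, where ATP6V0A4 was at 42.2 FPKM, and in all other libraries it was at 7.53 FPKM or less. Of the 6 V0 gene models, 5 (83.3%) had a log2 fold change above 0 and 1 below, with a median of 0.26. Of all gene models tested, 53.9% lay above 0. In FPKM as deposited, the V0 sum, most of it from ATP6V0E1 and ATP6V0B, was higher with cuticulosomes in 9 of 9 pigeons. Its median was 2338 FPKM with cuticulosomes and 2053 FPKM without. The sums nearly met in pigeons 458 (1950 FPKM with, 1939 without), 513 (2592.5 and 2579.7) and 514 (2338 and 2328). As a share of total FPKM, the V0 sum was lower with cuticulosomes in pigeon 513. Scaled by median ratios, it was lower with cuticulosomes in pigeons 514 and 515. ATP6V0E1, the largest part of the sum, was higher with cuticulosomes in 4 of 9 pigeons. The summed pump, accessory proteins included, was higher with cuticulosomes in 5 of 9 pigeons.

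A further gene model, CLIV_003920 on scaffold 209, was annotated as the 16 kDa proteolipid of the pump without a symbol and so falls outside the rule. It was singled out after its values were seen. It averaged 1372 ± 393 FPKM with cuticulosomes and 1288 ± 375 FPKM without (log2 difference 0.08, SE 0.11, limma adjusted p = 0.934, and 0.15 without pigeons 435 and 450).

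Among the accessory subunits, ATP6AP2, also called the prorenin receptor, averaged 300 ± 93.4 FPKM with cuticulosomes and 309 ± 57.1 FPKM without. Its coefficient of variation over the 18 libraries was 24.7%, with 72.4 FPKM in pigeon 450 with cuticulosomes as the lowest value. ATP6AP1 was split over CLIV_015075 and CLIV_015074 on scaffold 291, and their values ran almost in parallel, so the 2 gene models are not separate evidence. CLIV_015075 was at 99.0 FPKM in pigeon 435, 69.4 in 513, 12.7 in 458, 6.43 in 451 and 0.128 in 434 with cuticulosomes, and at 0 in the other 4 pigeons. Without cuticulosomes it was at 25.5 FPKM in pigeon 435, 3.39 in 513 and 0.0364 in 433, and at 0 in the other 6. A few libraries thus carried nearly all of the signal. The log2 difference was 1.41 (SE 0.58) for CLIV_015075 and 1.39 (SE 0.58) for CLIV_015074, both with a limma adjusted p = 0.902. Exact sign-flip permutation gave p = 0.0625 and p = 0.0469. Without pigeons 435 and 450 the differences were 1.54 and 1.51.

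The libraries highest in ATP6AP1 were also high in BSND, a chloride channel subunit of ion-transporting inner ear cells in mammals that was picked from its list after its values were seen. BSND was at 90.6 and 62.0 FPKM in pigeons 435 and 513 with cuticulosomes, at 41.0 FPKM in pigeon 435 without, and at 2.84 FPKM or less in the other 15 libraries. The whole list of 9 gene models summed to 512 to 1430 FPKM with cuticulosomes and 603 to 1372 FPKM without, and its defining marker FOXI1 was listed at 0 throughout. The list went both ways in pigeon 435 with cuticulosomes: BSND, KCNQ1 CLIV_003135, SLC12A2 and SLC26A4 had their highest value of all 18 libraries there, and CA2 (145 FPKM), KCNQ1 CLIV_013778 (17.5 FPKM) and KCNQ1 CLIV_013779 (12.3 FPKM) their lowest. The part of these cells in the result was not tested.

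**Figure D2:**
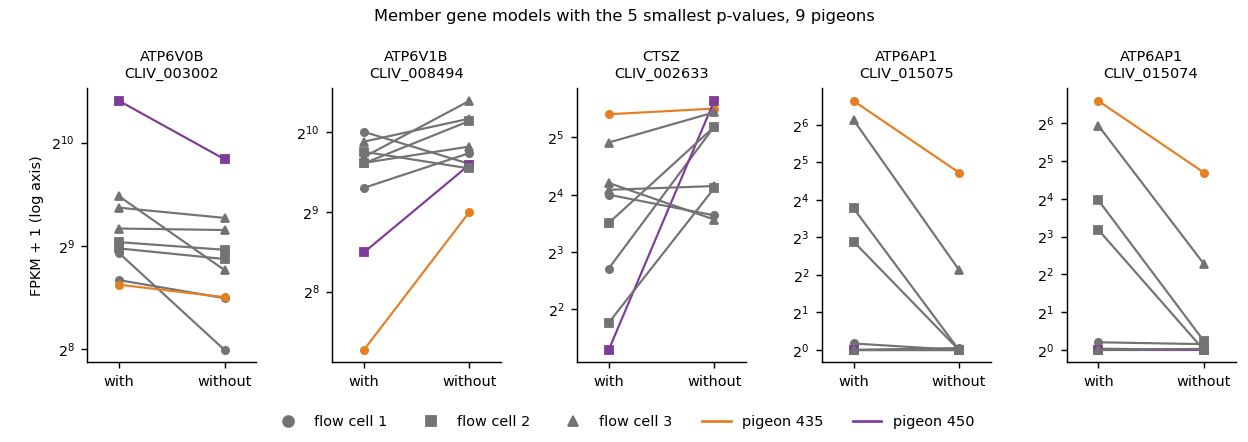
FPKM + 1 (log2-spaced axis) with and without cuticulosomes for the 5 member gene models with an unadjusted p under 0.05, each line 1 pigeon. ATP6V0B is higher with cuticulosomes in 9 of 9 pigeons, ATP6V1B and CTSZ are lower in 7 of 9, and both ATP6AP1 gene models lie near 0 FPKM in most libraries.

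Of the 9 cathepsins, 8 were tested. CTSD (CLIV_003116), the aspartyl protease of lysosomes, was the most abundant cathepsin and the least variable tested member. It ranged from 137 to 213 FPKM with cuticulosomes (median 169) and from 109 to 235 FPKM without (median 171), with a coefficient of variation of 17.5%. The difference was -0.01 on the log2 scale (SE 0.18, limma adjusted p = 0.997) and 0.02 without pigeon 450. CTSB, a cysteine protease, ranged from 12.7 FPKM in pigeon 450 to 321 FPKM in pigeon 435 with cuticulosomes (median 85.1) and from 50.0 to 160 FPKM without (median 82.3). CTSA, which protects beta-galactosidase from degradation, averaged 65.7 ± 27.2 FPKM with cuticulosomes and 61.8 ± 25.2 FPKM without.

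CTSZ (CLIV_002633, scaffold 36), a carboxypeptidase, had the lowest fold change of all members. Its level was 5.56, 15.0, 41.3, 1.45, 2.41, 10.4, 29.0, 17.5 and 16.0 FPKM with cuticulosomes in pigeons 433, 434, 435, 450, 451, 458, 513, 514 and 515, against 35.4, 11.5, 44.3, 48.7, 16.3, 35.3, 42.3, 10.9 and 16.8 FPKM without. It was lower with cuticulosomes in 7 of 9 pigeons, and the groups overlapped. Mean levels were 15.4 ± 13.0 FPKM with cuticulosomes and 29.1 ± 15.1 FPKM without (SD, n = 9 each), a log2 difference of -1.17 (SE 0.50, limma adjusted p = 0.902, exact sign-flip permutation p = 0.0781). The differences averaged -0.74 and -2.79 on flow cells 1 and 2 and 0.01 on flow cell 3, and the test of this variation between flow cells gave an adjusted p = 0.970 (limma F test). Without pigeon 450, in which CTSZ was at 1.45 FPKM with and 48.7 FPKM without cuticulosomes, the difference was -0.77, no longer at an unadjusted p under 0.05.

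CTSH, an aminopeptidase, averaged 38.3 ± 15.1 FPKM with cuticulosomes and 28.8 ± 15.9 FPKM without. Its log2 difference of 0.71 (SE 0.52, limma adjusted p = 0.902) was 0.13 without pigeon 514, where CTSH was at 0.10 FPKM without cuticulosomes, and -0.17 without flow cell 3. CTSS, the cathepsin of antigen-presenting cells in mammals, followed the sum of the macrophage and leukocyte markers across libraries, as the plot shows. Neither this comparison nor the split of the libraries given next was set in advance. In 5 libraries (pigeons 435 and 513 with cuticulosomes, 434, 435 and 513 without) the marker sum was 433 to 808 FPKM and CTSS 5.59 to 25.0 FPKM. In the other 13 the sum was at most 105 FPKM and CTSS at most 0.703 FPKM, with 10 listed at 0. Most of the sum was CD74, at 375 to 744 FPKM in the 5 libraries. LAPTM5 of the same list followed in part, at 8.58 to 36.3 FPKM in the 5 libraries. With cuticulosomes it was also at 14.7 FPKM in pigeon 458 and 11.8 FPKM in pigeon 514. CTSS was at 0 and 0.116 FPKM in these libraries. C1QC was at 9.92 to 41.2 FPKM in the 5 libraries, and at 8.79 FPKM in pigeon 514 with cuticulosomes. PTPRC of the same list did not follow. It was highest in pigeon 451 (2.70 FPKM with and 2.91 FPKM without cuticulosomes), where CTSS was at 0. The part of such cells in the levels of other members was not tested. Of the cathepsins, 3 had a log2 fold change above 0 and 5 below (median -0.04), and without pigeon 450, 5 were above and 3 below (median 0.09). Above 0 lay 53.9% of all gene models tested, and 56.9% without pigeon 450.

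**Figure D3:**
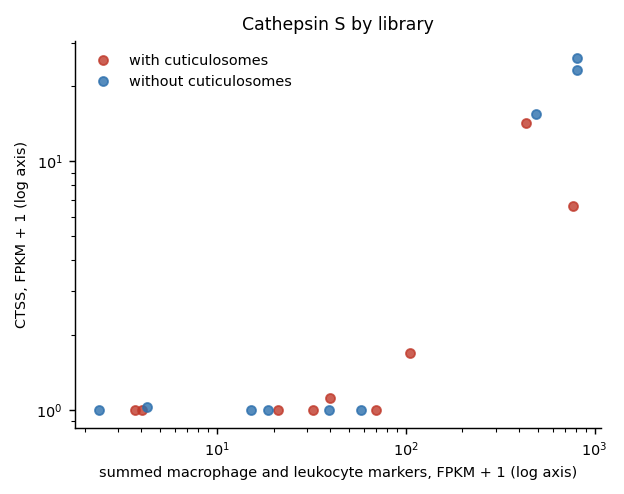
CTSS against the summed FPKM of 7 macrophage and leukocyte marker gene models (both as FPKM + 1 on log axes), 1 point per library, red with and blue without cuticulosomes. The 5 libraries with a sum above 400 FPKM, a cut not set in advance, are those with CTSS at 5.59 FPKM or more.

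The other hydrolases and their activators were led by PSAP (CLIV_013671), the precursor of the saposins that assist sphingolipid breakdown, with 820 FPKM over all libraries. It ranged from 56.1 to 1268 FPKM with cuticulosomes (median 901) and from 148 to 1282 FPKM without (median 923). The lowest value of each group was in pigeon 450. It was lower with cuticulosomes in 7 of 9 pigeons, with a log2 difference of -0.14 (SE 0.19, limma adjusted p = 0.929) that was 0.02 without pigeon 450. ASAH1, acid ceramidase, averaged 170 ± 111 FPKM with cuticulosomes and 198 ± 86.3 FPKM without (log2 difference -0.35, SE 0.20, limma adjusted p = 0.902, and -0.12 without pigeons 435 and 450). HEXA, a subunit of beta-hexosaminidase, averaged 98.1 ± 40.3 FPKM with cuticulosomes and 89.1 ± 52.3 FPKM without.

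LIPA, GLB1 and GAA each had a pair of gene models, and reads of 1 gene may be divided between them. The LIPA gene models (acid lipase, both on scaffold 112) averaged 42.5 ± 19.5 FPKM (CLIV_013815) and 14.3 ± 8.65 FPKM (CLIV_013814) with cuticulosomes, against 49.0 ± 22.1 and 21.8 ± 12.5 FPKM without, and CLIV_013815 was the higher in 18 of 18 libraries. The GLB1 gene models (beta-galactosidase, scaffolds 57 and 32) averaged 24.4 ± 18.1 and 4.41 ± 6.03 FPKM with cuticulosomes, against 13.6 ± 9.67 and 5.96 ± 10.8 FPKM without. The GAA gene models (acid alpha-glucosidase, scaffolds 146 and 331) averaged 13.3 ± 11.7 and 3.23 ± 3.72 FPKM with cuticulosomes, against 9.50 ± 7.72 and 0.626 ± 1.08 FPKM without. GAA CLIV_009188 had the smallest p of this group (log2 difference 1.04, SE 0.54, limma adjusted p = 0.902), with all of its levels between 0 and 10.5 FPKM. Its mean over all libraries, 1.93 FPKM, passed the filter only through the libraries with cuticulosomes. TPP1, a tripeptidyl peptidase, averaged 7.2 ± 10.4 FPKM with cuticulosomes and 6.08 ± 7.04 FPKM without. Of the 11 tested, 6 (54.5%) had a log2 fold change above 0 and 5 below, against 53.9% above 0 of all gene models tested. GAA CLIV_009188 is among these 6.

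Of the membrane proteins, LAMP1 (CLIV_013904), a main glycoprotein of the lysosomal membrane, averaged 187 ± 69.9 FPKM with cuticulosomes and 198 ± 67.2 FPKM without (log2 difference -0.12, SE 0.21, limma adjusted p = 0.948, and -0.03 without pigeon 450). SCARB2, the carrier of beta-glucocerebrosidase, ranged from 48.5 to 221 FPKM with cuticulosomes (median 141) and from 93.1 to 285 FPKM without (median 164). It was lower with cuticulosomes in 8 of 9 pigeons, where 1.3% of all gene models tested were lower in at least 8, and by less than 0.01 FPKM in pigeon 435. The log2 difference was -0.34 (SE 0.21, limma adjusted p = 0.902), with flow cell averages of -0.13, -0.39 and -0.49. LAMP2, which takes part in autophagy, ranged from 1.26 to 208 FPKM with cuticulosomes (median 79.9) and from 3.58 to 178 FPKM without (median 93.3). LAMP1 was the higher of the pair in 17 of 18 libraries. CD63, a tetraspanin of late endosomes, averaged 58.6 ± 51.0 FPKM with cuticulosomes, with its highest value of 177 FPKM in pigeon 435, and 42.7 ± 33.2 FPKM without.

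NPC1 (CLIV_014134), which exports cholesterol from the lysosome, was low: it was above 1 FPKM in 8 of 18 libraries and averaged 5.21 ± 5.99 FPKM with cuticulosomes and 2.98 ± 5.88 FPKM without. Of the mannose 6-phosphate receptors, M6PR, the smaller receptor, averaged 140 ± 58.1 FPKM with cuticulosomes and 136 ± 41.3 FPKM without, and IGF2R, the larger, 3.21 ± 3.20 FPKM with cuticulosomes and 4.07 ± 3.95 FPKM without. M6PR was above IGF2R in 18 of 18 libraries.

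No member passed the test between hair cells with and without cuticulosomes after adjustment. At an adjusted p under 0.05 (limma, Benjamini-Hochberg over 11393 gene models) 0 of 45 members and 0% of all gene models were called, and the smallest adjusted p was 0.902. At an unadjusted p under 0.05, 3 members were higher (ATP6V0B and both ATP6AP1 gene models) and 2 lower (ATP6V1B and CTSZ) with cuticulosomes. These 5 are 11.1% of the members, against a background of 5.28% of all gene models (3.27% higher and 2.01% lower). Without pigeon 450 the 2 ATP6AP1 gene models remained (4.44% of the members, against 5.13% of all gene models). These 2 are not separate evidence, yet they count as 2 members in both shares. Under exact sign-flip permutation (two-sided), 2 members were higher and 1 lower at p under 0.05, together 6.67% of the members, against 2.9% and 1.89% of all gene models (4.78% in either direction).

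**Figure D4:**
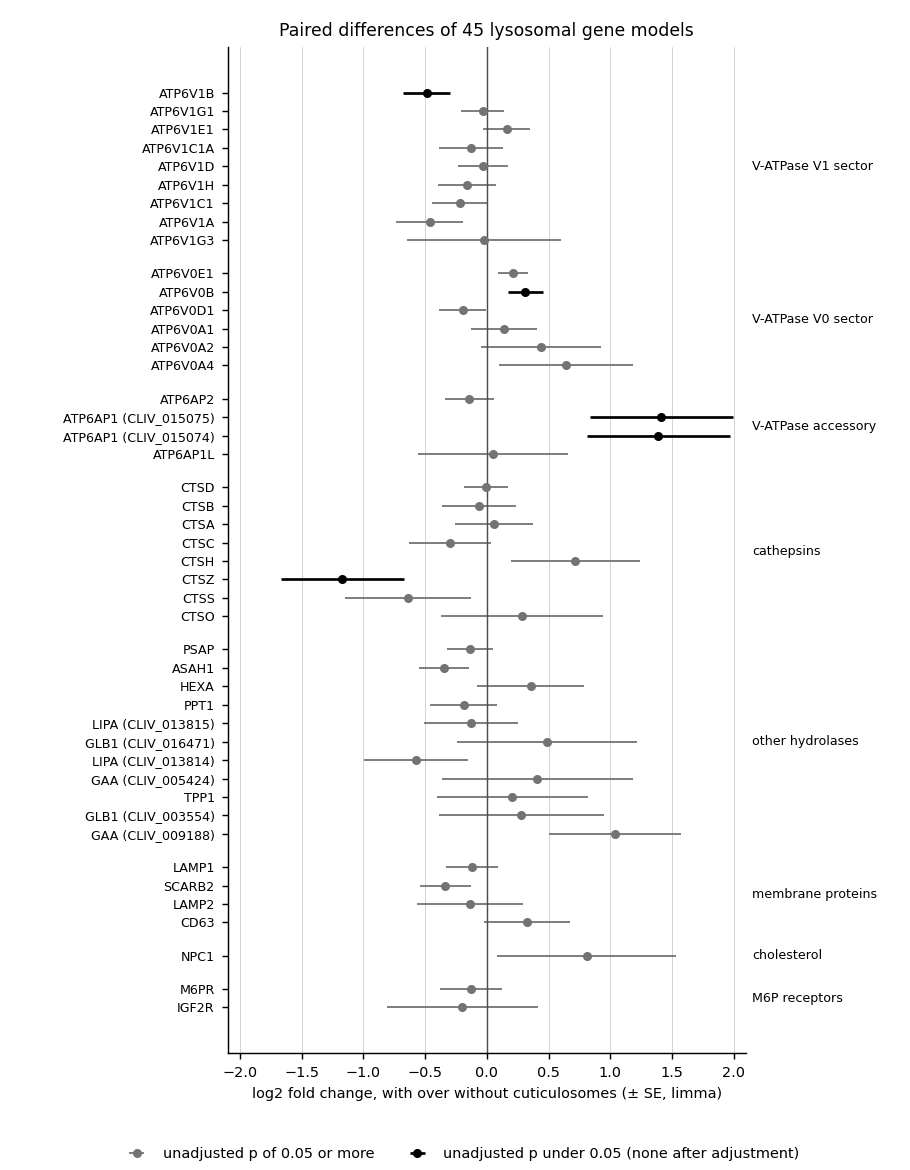
Log2 fold change with over without cuticulosomes (± SE from limma, 9 pairs) of the 45 tested members by role. Estimates run from -1.17 for CTSZ to 1.41 for ATP6AP1 CLIV_015075, and black points mark the 5 members with an unadjusted p under 0.05.

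The median log2 fold change of the members was -0.03, against 0.05 for all gene models tested. Of the 45, 20 (44.4%) lay above 0, against 53.9% of all. Without pigeon 450, 26 (57.8%) lay above 0 with a median of 0.03, against 56.9% of all. Among the 20 members above 100 FPKM, 16 (80%) lay below 0 with a median of -0.13, against 50.1% and a median of 0.00 for the 1062 gene models above 100 FPKM. This split varied with the pigeons kept. Without pigeon 450, 9 of the 20 (45%) lay below 0 with a median of 0.01, against 48.9% of the 1062. Without pigeon 435, 15 (75%) lay below 0 with a median of -0.19, against 45.9%. Without pigeons 435 and 450, 12 (60%) lay below 0 with a median of -0.01, against 43.6%. In these 20 the largest absolute fold change was 0.49 and the median absolute fold change 0.15, on a median standard error of 0.20. Among the 17 tested members below 30 FPKM, 12 (70.6%) lay above 0, against 53.9% of the gene models tested at any level. GAA CLIV_009188, which passed the filter only through the libraries with cuticulosomes, is among these 12. Without pigeon 450, 10 of the 17 (58.8%) lay above 0, against 56.9%, and without pigeons 435 and 450, 11 (64.7%), against 57.5%. In all pigeons the median absolute fold change of these 17 was 0.49 and their median standard error 0.61. The median over members of the paired difference was above 0 in 4 of the 9 pigeons, with an SD of 0.17 between pigeons.

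Levels were also compared between the flow cells, where no member passed the test in all pigeons (limma F test, smallest adjusted p = 0.430). The members named here had the smallest p. LAMP2 ranged from 79.9 to 208 FPKM in the 6 libraries of flow cell 1, from 1.26 to 133 FPKM on flow cell 2 and from 3.58 to 27.6 FPKM on flow cell 3. The values of flow cells 1 and 3 did not overlap, and on flow cell 2 the low values, 1.26 and 12.6 FPKM, were those of pigeon 450. ATP6V0A2 ranged from 12.9 to 43.3, from 0.777 to 57.8 and from 0.187 to 8.95 FPKM on flow cells 1, 2 and 3. ATP6V1A ranged from 57.8 to 253, from 12.6 to 209 and from 17.4 to 70.6 FPKM.

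Across flow cells, LAMP2 and ATP6V0A2 alone had an unadjusted p under 0.05 (limma F test of the pigeon means), with adjusted p = 0.463 and adjusted p = 0.430. They are 4.44% of the members, against a background of 9.5% of all gene models at an unadjusted p under 0.05 and 0% at an adjusted p under 0.05. ATP6V1A, TPP1 and ATP6V1C1A had the next smallest p, with adjusted values of 0.610, 0.621 and 0.626. Without pigeon 450, 5 members (11.1%) had an unadjusted p under 0.05, against 14% of all gene models, and LAMP2 alone was called, with an adjusted p of 0.0488, as were 0.456% of all gene models. The flow cells held different pigeons, so that flow cell and pigeon cannot be told apart. The difference between the cell types varied between flow cells in 0 members at an adjusted p and in 0 at an unadjusted p under 0.05 (limma F test), against 0% and 4.98% of all gene models. The smallest p were those of CTSZ, CTSH and ATP6V0A2, with adjusted values of 0.970 to 0.975.

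**Figure D5:**
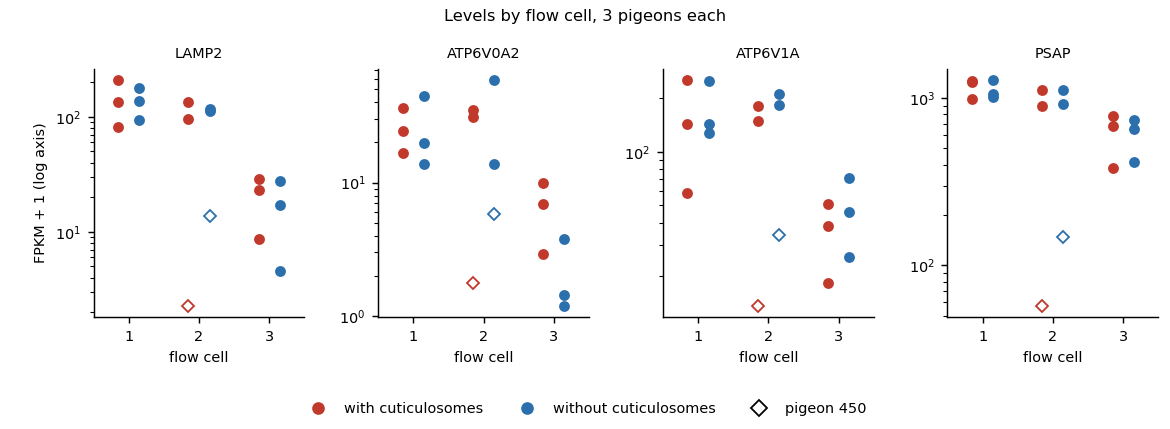
FPKM + 1 (log axes) of LAMP2, ATP6V0A2, ATP6V1A and PSAP by flow cell, 3 pigeons each, red with and blue without cuticulosomes, open diamonds pigeon 450. LAMP2 lies at 79.9 FPKM or more on flow cell 1 and at 27.6 FPKM or less on flow cell 3, and pigeon 450 is low for each of the 4 genes on flow cell 2.

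A wider list of lysosomal genes was read from the same fit. Of 81 listed symbols 72 were matched, by 74 gene models of which 68 were tested, and 0 were called at an adjusted p under 0.05 (limma). At an unadjusted p under 0.05 were 3 gene models, 4.41% of the 68, against 5.28% of all gene models. FNIP1, a partner of folliculin in nutrient sensing, and NAGPA, which uncovers the mannose 6-phosphate tag, were at 9.74 ± 10.7 and 3.02 ± 5.07 FPKM with cuticulosomes, against 4.38 ± 6.05 and 0.159 ± 0.452 FPKM without. FNIP1 was higher with cuticulosomes in 8 of 9 pigeons and NAGPA in 4, and each was lower in 1 (limma adjusted p = 0.902 for both). The mean of NAGPA over all libraries, 1.59 FPKM, passed the filter only through the libraries with cuticulosomes. MANBA, beta-mannosidase, was at 4.69 ± 5.25 FPKM with cuticulosomes and 9.17 ± 6.06 FPKM without (lower in 8 of 9 pigeons, limma adjusted p = 0.902). Without pigeon 450, 7 of the 68 (10.3%) were at an unadjusted p under 0.05, against 5.13% of all gene models. Of the 68, 38 (55.9%) had a log2 fold change above 0, against 53.9% of all, with a median of 0.12. TFEB, a transcription factor for lysosomal genes in mammals, averaged 1.81 ± 2.33 FPKM with cuticulosomes and 0.416 ± 1.16 FPKM without. Its mean over all libraries, 1.12 FPKM, lay just above the filter and passed it only through the libraries with cuticulosomes. TFEB was higher with cuticulosomes in 4 of 9 pigeons and lower in 1 (log2 difference 0.74, SE 0.41, limma adjusted p = 0.902). TCIRG1, the osteoclast isoform of the a subunit, was below the filter.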

How the data were processed

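RNA of 18 pools of 30 hair cells from 9 pigeons was measured. Per the labels and the study's methods, the authors made full-length cDNA libraries, aligned 50 base single-end reads with TopHat 1.4.1, estimated FPKM with Cufflinks 1.3.0 including bias correction, counted reads with HTSeq 0.6.1p1 and compared the cell types with DESeq2 1.10.1. The name of the genome build was not given in the sources used here. The authors deposited FPKM per gene model and library, without counts per library, so how many reads a value rests on is unknown, and amplification noise adds to it. The study's methods give an approximate read number for the libraries as a whole. The deposited columns of the authors' own comparison were not used.

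FPKM were tested as log2(FPKM + 1) with limma 3.58.1 (R 4.3.3), pigeon as block, an intensity trend and Benjamini-Hochberg adjustment over gene models with a mean above 1 FPKM, threshold 0.05. Fold changes understate changes of low genes. Libraries of the same pigeon come from the same bird, and their deviations from the group means correlated with r = 0.121 to 0.591. Flow cells were taken from the sample descriptions. The fit was tested on simulated data with normal noise and 200 gene models changed by 1, 2 or 3 log2 units. Of these, 95 were called, with 3 false calls. Smaller changes were not simulated, and 36 of the 45 members tested had an absolute log2 fold change under 0.5. A change can therefore go uncalled. Other steps ran in Python 3.11.15 (scipy 1.17.1, pandas 2.3.3, matplotlib 3.10.9, numpy 2.4.6). Members and lists were chosen with earlier results of these data known. Genes were named by a rule: in each role group the 3 highest and the 2 with the smallest p, all with an unadjusted p under 0.05, all split symbols, the 5 with the smallest p between flow cells and the 3 with the smallest interaction p. Others are named as examples of their role. Alternatives were other pseudocounts, filters, scalings, blocks and variance settings, the sign-flip test, and pigeons or flow cells left out. No sequences were used here.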

Additional observations from a re-analysis of the deposited data

Results flagged for a closer look

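In 12 of the 90 sets of 9 values (45 members in 2 cell types) the highest or lowest library lay far from the rest by Dixon's criterion on log2(FPKM + 1), where chance gives about 1 in 20. These are 13.3% of the member sets, against 14.2% of 22745 sets over all gene models tested and 15.7% over those above 100 FPKM. Pigeon 450 gave 7 of them. With cuticulosomes it was the highest library for ATP6V0E1 (4760 FPKM, next 1814) and ATP6V0B (1356 FPKM, next 713), and the lowest for ATP6AP2 (72.4 FPKM, next 266), CTSB (12.7 FPKM, next 68.9), PSAP (56.1 FPKM, next 380) and M6PR (13.9 FPKM, next 95.8). M6PR was also lowest in pigeon 450 without cuticulosomes (50.6 FPKM, next 102). Without cuticulosomes, pigeon 435 was the highest library for both ATP6AP1 gene models (25.5 FPKM for CLIV_015075, next 3.39, and 24.9 FPKM for CLIV_015074, next 3.85). The other 3 sets also came from libraries without cuticulosomes. CTSH was at 0.10 FPKM in pigeon 514 (next 20.7), HEXA at 7.30 FPKM in pigeon 433 (next 42.7) and LIPA CLIV_013815 at 7.47 FPKM in pigeon 451 (next 28.0).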

How the results depend on the processing

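The count of members called stayed at 0 in the 24 alternatives to the comparison of cell types, as did the count over all gene models, and the median log2 fold change of the members ran from -0.11 to 0.03 (from -0.08 to 0.03 with 1 pigeon left out). At an unadjusted p under 0.05, 0 to 3 members were higher and 0 to 3 lower. Leaving out the replicate block, so that the pigeons were unpaired, gave 0 higher and 1 lower, with 182 and 113 over all gene models. Without pigeons 435 and 450, an alternative chosen after seeing the data, 2 were higher, both of them ATP6AP1 gene models, and 0 lower. With the fits that left out 1 pigeon, the unadjusted p stayed under 0.05 in 7 of 9 for ATP6V1B, 6 for each ATP6AP1 gene model, 5 for CTSZ and 4 for ATP6V0B. The fold change of CTSH was -0.17 without flow cell 3, against 0.71 in all pigeons. The number of gene models whose level differed between flow cells was 0 to 1 for members and 0 to 52 for all gene models with 1 pigeon left out, the highest without pigeon 450. Of the 45 members, 18 kept their sign in all 24 alternatives. The median fold change of the V1 members was -0.33 without flow cell 1, and without flow cell 3 that of the V0 members was 0.01 and that of the cathepsins -0.21. Scaling by median ratios turned the sign of ATP6V1D and CTSD, both near 0.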
